A study of Mus musculus with 2 samples.

Results

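The insulin-like growth factor (IGF) family was followed in isolated mouse glomeruli through 10 genes: the ligands Igf1 and Igf2, the signalling receptor Igf1r, and the 7 genes Igfbp1 to Igfbp7, which encode secreted IGF-binding proteins. Every probe set that the platform annotation assigned to exactly 1 of these symbols was taken, which gave 27 of the 45101 probe sets on the array, and 10 of the 18193 genes with such a probe set. The family was chosen by name with the signals of this same pair of arrays known, in which Igfbp1 and Igfbp2 went opposite ways, so the values below are a description and carry no test.

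The array of the double knockout held glomerular RNA of male C57BL/6J mice that were fl/fl for both GC-A and p38 and carried Nephrin-Cre (Cre/+). The array of the floxed control held RNA of male C57BL/6J mice that were likewise fl/fl at both genes but +/+ at the Cre locus, read here as having no Cre. GC-A, encoded by Npr1, is the receptor for atrial and B-type natriuretic peptides, p38 is a stress-activated protein kinase, and the nephrin promoter restricts Cre to podocytes among the cells of the glomerulus. Both genotypes were studied at 2 months of age after 3 weeks of a diet with 6% NaCl and of aldosterone at 0.2 μg per kg body weight per minute from a minipump, so neither group is free of the salt and hormone load. There was 1 array per genotype, and the number of mice behind each is not stated in the labels, so no difference given here has a replicate check. "Higher" and "lower" always describe the double knockout against the floxed control.

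IGF1 and IGF2 are small growth factors that signal through the IGF1 receptor, a tyrosine kinase that feeds the PI3K and AKT pathway and thereby keeps FoxO transcription factors out of the nucleus. In tissue fluid and plasma the IGFs are largely held by IGFBPs, which bind them with high affinity and can either withhold them from the receptor or deliver them to it. IGFBP1 and IGFBP2 also carry an RGD motif through which they can bind integrins. IGFBP7 is the outlier of the group, with low affinity for IGFs.

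Of the 27 probe sets, 26 were measured, meaning that at least 1 of the arrays had a signal at or above the floor of 52.7, the 40th percentile of the signals averaged over the arrays. All 10 genes had a measured probe set, and each gene was represented by its brightest one. Sets ending in _x_at, here called cross-hybridising, were left out where another existed. Sets ending in _s_at were kept, as for Igfbp5. By this choice 1 gene, Igfbp2, was at least 2-fold higher, and 1, Igfbp1, at least 2-fold lower. Among all 13290 measured genes the share past 2-fold was 3.53% upward and 2.87% downward, or 6.40% in all. Of the genes past it 55.1% were higher with the signals as deposited, and 38.6% with each array centred on its median. Of the 10 genes 4 were above 0, against 56.1% of all measured genes. Because the members were selected with this contrast in view, nothing is read from that comparison. The median log2 difference of the 10 genes was -0.25, against 0.07 over all measured genes.

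**Figure D1:**
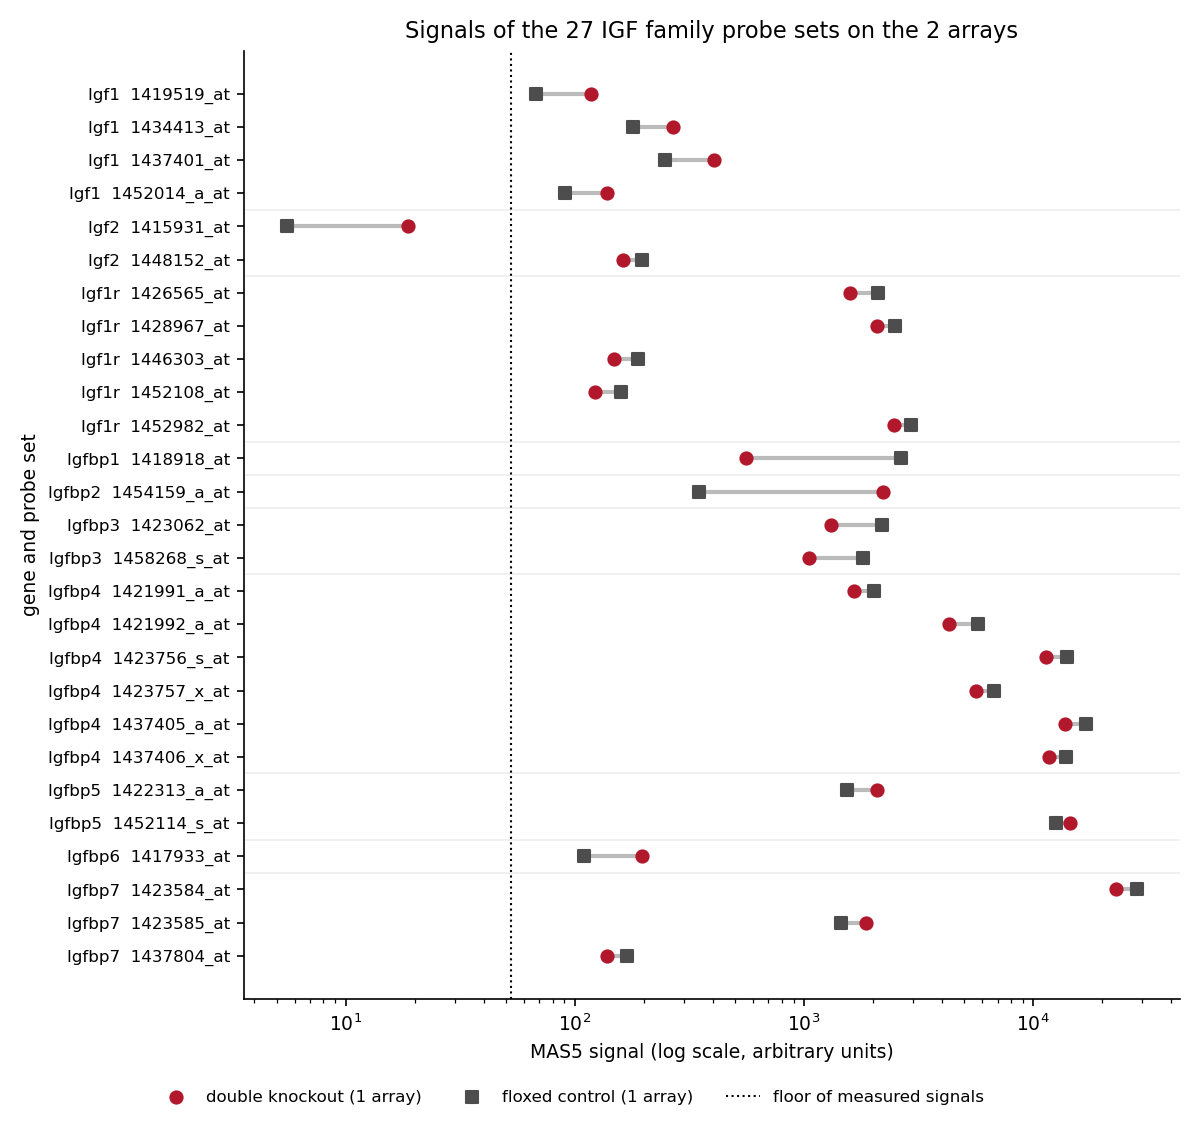
MAS5 signal (x axis, log scale) of each of the 27 IGF family probe sets (y axis), with the double knockout as a red circle, the floxed control as a grey square and the floor of 52.7 as a dotted line; each point is 1 array. The long bars are those of Igfbp1 (557 in the double knockout against 2647 in the floxed control) and Igfbp2 (2220 in the double knockout against 347 in the floxed control), and the only probe set left of the floor on both arrays is one of Igf2.

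Igfbp2 had the largest difference of the family. IGFBP2 is a binding protein abundant in fetal tissues and in plasma. Its single probe set, 1454159_a_at, read 2220 in the double knockout against 347 in the floxed control, a log2 difference of 2.68 or 6.40-fold higher. It stood 7th from the top of the 13290 measured genes. Among the 500 genes nearest to it in mean signal, the log2 differences had a robust SD of 0.40 around a median of 0.07. With no second Igfbp2 probe set in the annotation, the value rests on 1 set of probes.

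Igfbp1 went the other way. IGFBP1 is best known as a liver and decidual product whose transcription falls when insulin or IGF signalling is active, and rises in fasting. Its single probe set, 1418918_at, read 557 in the double knockout against 2647 in the floxed control, which was a log2 difference of -2.25 or 4.75-fold lower. It was 6th from the bottom of all measured genes, with a robust SD of 0.41 among the 500 genes of like signal. Igfbp2 and Igfbp1 thus differed from each other by 4.93 on the log2 scale in their change between the arrays, a 30.4-fold shift of the one relative to the other. That contrast is within each array and does not depend on a constant factor between the arrays.

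The promoters of these 2 genes are shown because they are the only members past 2-fold and differ in make-up. The 250 bases before the annotated start are given, 5′ to 3′ on the plus strand, from RefSeq's GRCm38.p6 annotation, for Igfbp1 at chr11:7197537-7197786 and for Igfbp2 at chr1:72824230-72824479. In Igfbp1 the capitals mark the letters CAAAACA and TATTTTG, the ends of the insulin response element that FoxO factors bind in the human and rat genes. In Igfbp2 they mark GGGCGG, the GC box recognised by Sp1-type factors.
Igfbp1: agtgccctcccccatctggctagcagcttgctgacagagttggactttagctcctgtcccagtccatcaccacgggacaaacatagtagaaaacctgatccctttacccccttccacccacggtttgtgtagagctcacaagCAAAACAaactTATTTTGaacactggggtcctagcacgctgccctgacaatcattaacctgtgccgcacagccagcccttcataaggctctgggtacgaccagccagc
Igfbp2: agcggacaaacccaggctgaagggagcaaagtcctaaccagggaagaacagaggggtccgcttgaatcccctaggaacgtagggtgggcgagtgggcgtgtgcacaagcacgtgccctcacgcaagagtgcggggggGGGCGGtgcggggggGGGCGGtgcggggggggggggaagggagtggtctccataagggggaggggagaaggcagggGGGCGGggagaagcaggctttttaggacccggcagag

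RefSeq's promoter table held 14 windows of 300 bases (250 before to 50 after a start) for the 10 genes. Each motif was searched on both strands. CAAAACA was in 6.28% and TATTTTG in 4.36% of all 32851 windows, and both together in 0.472%; of the family's windows, that of Igfbp1 held both, and none of the other 13 held either. In Igfbp1 they form the 18-base run CAAAACAAACTTATTTTG, from base 108 to base 91 before the start, which no other window in the table contained. The FoxO binding element GTAAACA, found in 3.65% of all windows, was in none of the 14. GGGCGG was in 35.7% of all windows and in 5 of the family's: it occurred 3 times in the first Igfbp2 window, 4 times in Igfbp7, 2 times in Igf1r and in 2 of the 4 Igf2 windows. The printed Igfbp2 bases were 67.2% G or C and those of Igfbp1 53.2%. These are letters in a window and not evidence of binding.

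Igfbp3 was the other member at least 1.5-fold lower. IGFBP3 is the main carrier of IGFs in plasma, in a complex with the acid-labile subunit. Its probe set 1423062_at read 1313 in the double knockout against 2193 in the floxed control, 1.67-fold lower, and 1458268_s_at read 1055 in the double knockout against 1815 in the floxed control, 1.72-fold lower. Their log2 differences, -0.74 and -0.78, lay 0.04 apart. With Igfbp1 it made 2 members at least 1.5-fold lower, against 10.0% of all measured genes.

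Igfbp6 was at least 1.5-fold higher. IGFBP6 binds IGF2 with preference over IGF1. Its single probe set read 197 in the double knockout against 109 in the floxed control, a log2 difference of 0.85 or 1.80-fold. Signals this close to the floor depend on it: with the floor at the 60th percentile the difference was 0.12.

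Igfbp4, Igfbp5 and Igfbp7 differed little. IGFBP4 mostly restrains IGF action and is cleaved by the protease PAPP-A, and IGFBP5 binds extracellular matrix. The brightest Igfbp4 probe set read 13719 in the double knockout against 16932 in the floxed control (log2 difference -0.30). All 6 Igfbp4 probe sets were lower with the signals as deposited, from -0.42 to -0.25. Genes of like signal to the brightest set had a median of -0.29. That set came to -0.03 after a loess trend on signal was removed and to -0.05 after quantile normalization. Another Igfbp4 set came to 0.0001 without the loess trend. The brightest Igfbp5 probe set read 14537 in the double knockout against 12591 in the floxed control (0.21), and the second read 2080 in the double knockout against 1546 in the floxed control (0.43). Both Igfbp5 sets were thus slightly higher relative to the whole sample. The size for the brightest depended on the scaling, at 0.49 after quantile normalization and 0.46 without the loess trend. It came to -0.57 when the arrays were recentred on glomerular markers as described further on.

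Igfbp7 was the 1 member whose probe sets disagreed. The brightest read 22988 in the double knockout against 28455 in the floxed control, a log2 difference of -0.31, and the dimmest read 138 in the double knockout against 169 in the floxed control, a difference of -0.30. The third read 1874 in the double knockout against 1446 in the floxed control, or 0.37. Its direction also turned with the scaling of the arrays, at 0.03 for the brightest set after a loess trend on signal was removed and 0.002 after quantile normalization, so no direction is given for Igfbp7.

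Of the ligands, Igf1 was higher in all 4 of its probe sets, but recentring on glomerular markers put 3 of the 4 below 0 (-0.19, -0.18 and -0.06) and the other at 0.02. The brightest, 1437401_at, read 404 in the double knockout against 246 in the floxed control, and 1434413_at read 268 in the double knockout against 179 in the floxed control. The dimmer sets read 138 and 117 in the double knockout, against 90.9 and 67.8 in the floxed control. The log2 differences ran from 0.59 to 0.79, up to 1.73-fold. Igf1, Igfbp2 and Igfbp6 were the 3 members at least 1.5-fold higher, against 13.7% of all measured genes.

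Igf2, an imprinted gene with high expression before birth, read 163 in the double knockout against 196 in the floxed control in the probe set 1448152_at, a log2 difference of -0.26. The other Igf2 probe set, 1415931_at, read 18.7 in the double knockout against 5.54 in the floxed control, below the floor on both arrays, and no fold is given for it. The arrays therefore hold 1 dim measurement of Igf2.

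The receptor gene Igf1r was slightly lower in all 5 of its probe sets. The brightest read 2474 in the double knockout against 2923 in the floxed control, and the differences of the 5 sets ran from -0.40 to -0.24 on the log2 scale, none of them reaching 1.5-fold.

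Agreement between probe sets gives the only internal check that these arrays allow, although probe sets of a gene share the sample and are not replicates. Of the 6 members with at least 2 measured probe sets, 5 had all of them on one side of 0 as deposited, the exception being Igfbp7. Among all 6421 genes with at least 2 measured probe sets this share was 63.4%. The count depends on the scaling. Without the loess trend an Igfbp4 set came to 0.0001, and recentring on glomerular markers put 3 of the 4 Igf1 sets below 0. The log2 differences of a member's probe sets spanned a median of 0.19, against 0.33 over all such genes.

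**Figure D2:**
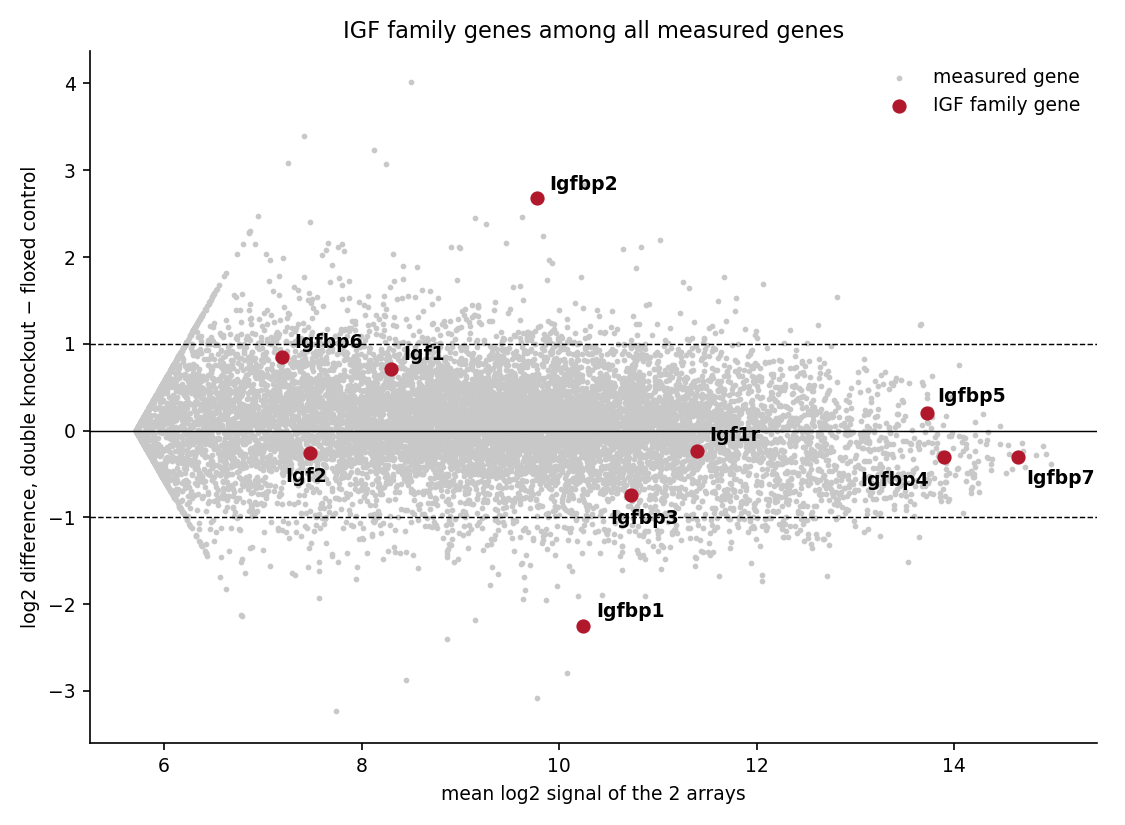
Log2 difference between the double knockout and the floxed control (y axis) against the mean log2 signal of the arrays (x axis) for all 13290 measured genes in grey, with the 10 IGF family genes in red and dashed lines at 2-fold. Igfbp2 (2.68) and Igfbp1 (-2.25) lie at the edges of the cloud, and the other 8 genes lie between the dashed lines.

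In the RefSeq gene table, used here for gene order only, 4 of the binding protein genes form 2 pairs of neighbours with no other protein-coding gene listed between them. On chromosome 11 Igfbp1 and Igfbp3 were both lower (-2.25 and -0.74), and on chromosome 1 Igfbp2 and Igfbp5 were both higher (2.68 and 0.21), Igfbp5 only until recentring on glomerular markers. How often neighbouring genes in general went the same way was not counted, so nothing is read from the shared directions. The differences within a pair were unequal, by 1.51 for Igfbp3 minus Igfbp1 and by -2.47 for Igfbp5 minus Igfbp2. The genes flanking the pairs on their outer sides read -0.15 for Adcy1 and 0.54 for Tns3 beside Igfbp1 and Igfbp3, and -0.13 for Rpl37a beside Igfbp2, while Tnp1 beside Igfbp5 was below the floor on both arrays.

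Signals of cell type markers differed between the arrays too. Of the glomerular markers, 29 of 30 measured genes were higher, with a median log2 difference of 0.78 over podocyte, endothelial, mesangial and parietal genes. Summed signals of the measured podocyte markers were 64386 in the double knockout against 46955 in the floxed control, with all 7 higher, from 0.10 (Podxl) to 0.97 (Ptpro). The 10 endothelial markers ran from 0.19 (Plat) to 1.45 (Gpihbp1) and summed to 66726 in the double knockout against 45710 in the floxed control. The 9 mesangial and mural markers ran from 0.46 (Pdgfrb) to 1.69 (Tagln), with sums of 36142 in the double knockout against 19945 in the floxed control. The 4 parietal markers ran from -0.04 (Pax8) to 2.46 (Cd44), with sums of 6668 in the double knockout against 3277 in the floxed control. All 12 proximal tubule markers were lower, from -1.66 (Dpys) to -0.53 (Slc34a1), with sums of 76927 in the double knockout against 134352 in the floxed control. All 9 markers of the later nephron (Henle's loop through to the collecting duct) were lower too, from -1.58 (Slc4a1) to -0.15 (Umod), with sums of 41205 in the double knockout against 58375 in the floxed control. Nphs1, which encodes nephrin and was picked after its values were seen, read 8373 in the double knockout against 5320 in the floxed control, so RNA of glomerular cells, as labelled, was present on both arrays, together with tubule RNA. In such bulk samples, fewer cells of a type and less RNA per cell cannot be told apart.

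Set against these markers, Igfbp1 was lower than each of the 21 measured tubule markers, the lowest of which was at -1.66. Igfbp2 was higher than each of the 30 glomerular markers. Both genes were known to go opposite ways when the family was chosen, so nothing is read from their place beyond the markers. Igfbp3 lay among the tubule markers, 14 of which were lower than it. Igf1 and Igfbp6 lay among the glomerular markers, of which 17 and 12 were higher than they were. Igf1 and Igfbp6 also lay within the range of the 10 macrophage markers, all higher, from 0.56 (Cx3cr1) to 1.44 (C1qc) with summed signals of 11234 in the double knockout against 6207 in the floxed control. The 6 interstitial fibroblast markers went both ways, from -0.31 (Lum) to 1.54 (Col1a1), a range that held Igf1 and Igfbp6 as well. The sums of these fibroblast markers were 9163 in the double knockout against 6168 in the floxed control. Of 7 lymphocyte markers 2 were measured, Cd8a and Ms4a1, at 41.1 and 133 in the double knockout, against 60.8 and 109 in the floxed control, summing to 174 in the double knockout against 170 in the floxed control. The part of these marker shifts in the family's differences was not tested.

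When all differences were recentred on the median of the glomerular markers, which subtracts 0.78 from each and puts the median of all genes at -0.71, Igfbp2 remained higher at 1.90 and Igfbp1 lower at -3.02. Igfbp6 came to 0.07, Igf1 to -0.06 and Igfbp5 to -0.57, so the direction given above for Igf1 and Igfbp5 holds relative to the whole sample and not relative to glomerular markers. Igf1r, Igf2, Igfbp3, Igfbp4 and Igfbp7 came to between -1.52 and -1.02, and 7 of the 10 members were then past 2-fold. Over all genes that setting put 46 past 2-fold upward and 3484 downward.

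**Figure D3:**
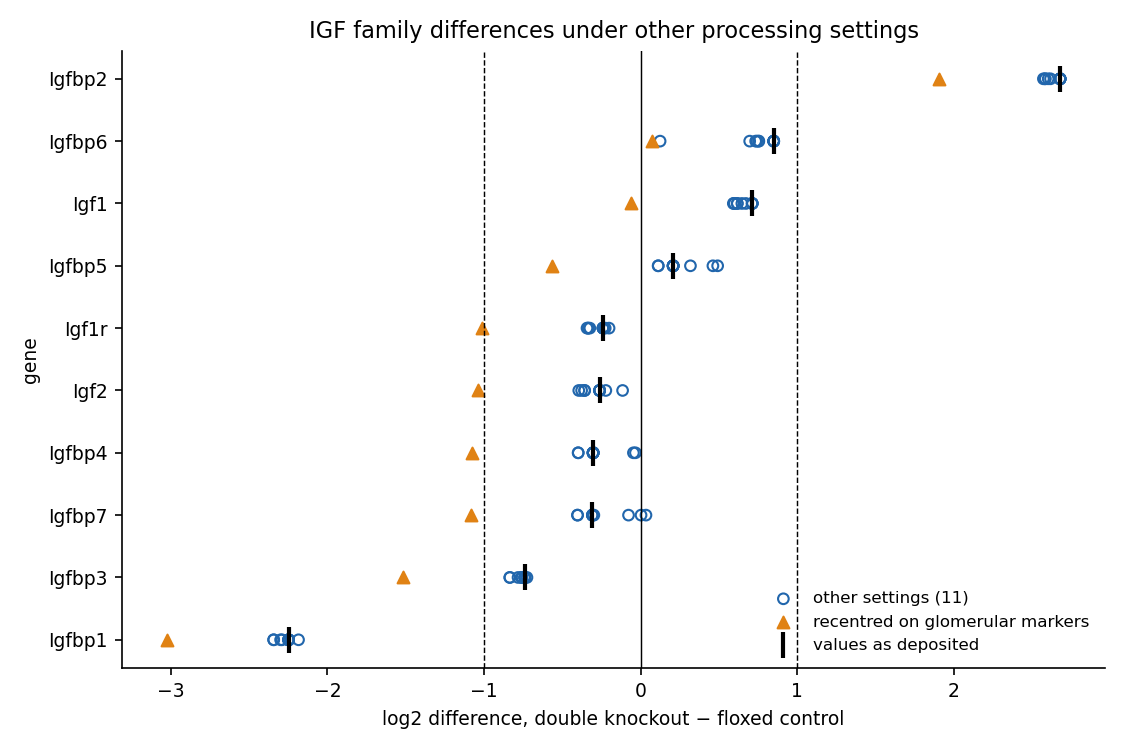
Log2 difference between the double knockout and the floxed control (x axis) for each of the 10 genes (y axis), as deposited (black bar), recentred on glomerular markers (orange triangle) and under 11 other settings (open circles, many of which coincide); dashed lines mark 2-fold. Igfbp2 and Igfbp1 stay outside the dashed lines in every setting shown, whereas Igf1 and Igfbp5 change sign on recentring and Igfbp7 changes sign after loess or quantile scaling.

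The wider pathway was read from 8 lists of genes around the family. Of 60 distinct measured genes, 4 were past 2-fold, a share of 6.67% against 6.40% of all measured genes in either direction. These 4 were higher as deposited. With a lower floor, no floor or other scalings between the arrays, 1 further gene came past 2-fold, and it was lower. It was Trim63, at -1.08 with median centring, or Insrr, at -1.44 with the floor at the 25th percentile. With the mean over probe sets Ccn4 came past 2-fold, higher at 1.17. Fbxo32 was not past 2-fold in that setting, nor with the probe set of median difference. On recentring on glomerular markers 0 were past 2-fold upward and 13 downward. Of all 13290 measured genes, that setting put 46 past 2-fold upward and 3484 downward, so nothing is read from the 13. The median log2 difference of the 60 genes was 0.14, against 0.07 over all genes.

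Genes that carry, cleave or clear IGFs had a median of 0.18 over 7 measured members, with none past 2-fold. Lrp1 differed most. It encodes a large endocytic receptor that can bind IGFBP3, and read 1378 in the double knockout against 828 in the floxed control (1.66-fold higher). Igf2r, which removes IGF2 from the cell surface, differed by 0.18, and Igfals, which encodes the acid-labile subunit, by -0.48; both were named only once their values had been seen.

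The insulin receptor family and its adaptors had a median of 0.14 over 9 genes. At the floor of 52.7 none was past 2-fold, and Irs1, a docking protein of both receptors, had the largest difference at 1128 in the double knockout against 860 in the floxed control (0.39). Insrr, which encodes the insulin receptor-related receptor, read 17.5 in the double knockout against 65.4 in the floxed control, so its difference of -0.31 at that floor is a bound, and it passed Irs1 at the lower floor. The 17 measured genes of PI3K, AKT, mTOR and FoxO had a median of 0.10, and again none was past 2-fold. Pik3r1, which encodes the p85α regulatory subunit of PI3K, came nearest. It read 3619 in the double knockout against 1879 in the floxed control, 1.93-fold higher, and its other 3 probe sets were higher as well, by 0.70 to 0.93 on the log2 scale.

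Genes known to be induced by FoxO factors, the class to which Igfbp1 belongs in liver, went both ways, with 7 of 12 higher, 5 lower and a median of 0.14. The sign of that median turned with the choice of probe set, to -0.04 for the mean over probe sets and -0.08 for the probe set of median difference. Fbxo32, which encodes the muscle ubiquitin ligase atrogin-1, read 297 in the double knockout against 111 in the floxed control, 2.67-fold higher, but its other probe sets differed by 0.83 and -0.14 on the log2 scale. Pdk4, which encodes a kinase that inhibits pyruvate dehydrogenase, read 349 in the double knockout against 158 in the floxed control, 2.22-fold higher. In contrast, the gluconeogenic genes Pck1 and G6pc read 11874 and 5445 in the double knockout, against 20791 and 9400 in the floxed control. Their differences of -0.81 and -0.79 lay within the range of the proximal tubule markers. The part of the tubule marker shift in these differences was not tested. A second Pck1 probe set differed by -1.26, more than 2-fold lower, and a dim one, below the floor in the double knockout, by -0.74. Trim63 was 1.98-fold lower. Pck1, G6pc and Trim63 were picked after their values were seen. No gene of this list was as far below 0 as Igfbp1, at -2.25. Igfbp1 was 6th from the bottom of all measured genes and known to be lower when the family was chosen. Nothing is therefore read from that comparison.

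In the growth hormone axis, which drives Igf1 transcription in liver, the 7 measured genes had a median of 0.05, or -0.04 with median centring. Socs3, a feedback inhibitor of JAK and STAT signalling, was past 2-fold, at 836 in the double knockout against 352 in the floxed control (2.38-fold higher), with cross-hybridising sets at 1.27 and 1.83 on the log2 scale. The growth hormone receptor gene Ghr, picked after its values were seen, differed by -0.65, and its other 2 probe sets by -1.01 and -0.98. The 3 measured members among IGF2 mRNA-binding proteins and imprinted partners of Igf2 had a median of -0.45, which became 0.11 with the probe set of median difference, -0.02 with the mean over probe sets and -0.01 with cross-hybridising sets allowed. No direction is given for this list, which had Igf2bp3 at 230 in the double knockout against 361 in the floxed control (1.57-fold lower).

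The CCN genes encode matricellular proteins with a domain related to that of the IGFBPs. The 3 measured members were all higher, with a median of 0.98. Ccn2, the connective tissue growth factor, read 19669 in the double knockout against 8461 in the floxed control, 2.32-fold higher. The 4 integrin subunits that bind IGFBP1 or IGFBP2 were all higher, with a median of 0.48 and none past 2-fold, and Itgb3 had the largest difference at 187 in the double knockout against 116 in the floxed control (0.69). The glomerular markers had a median of 0.78, and after recentring on these the medians of the CCN and integrin lists became 0.20 and -0.30.

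**Figure D4:**
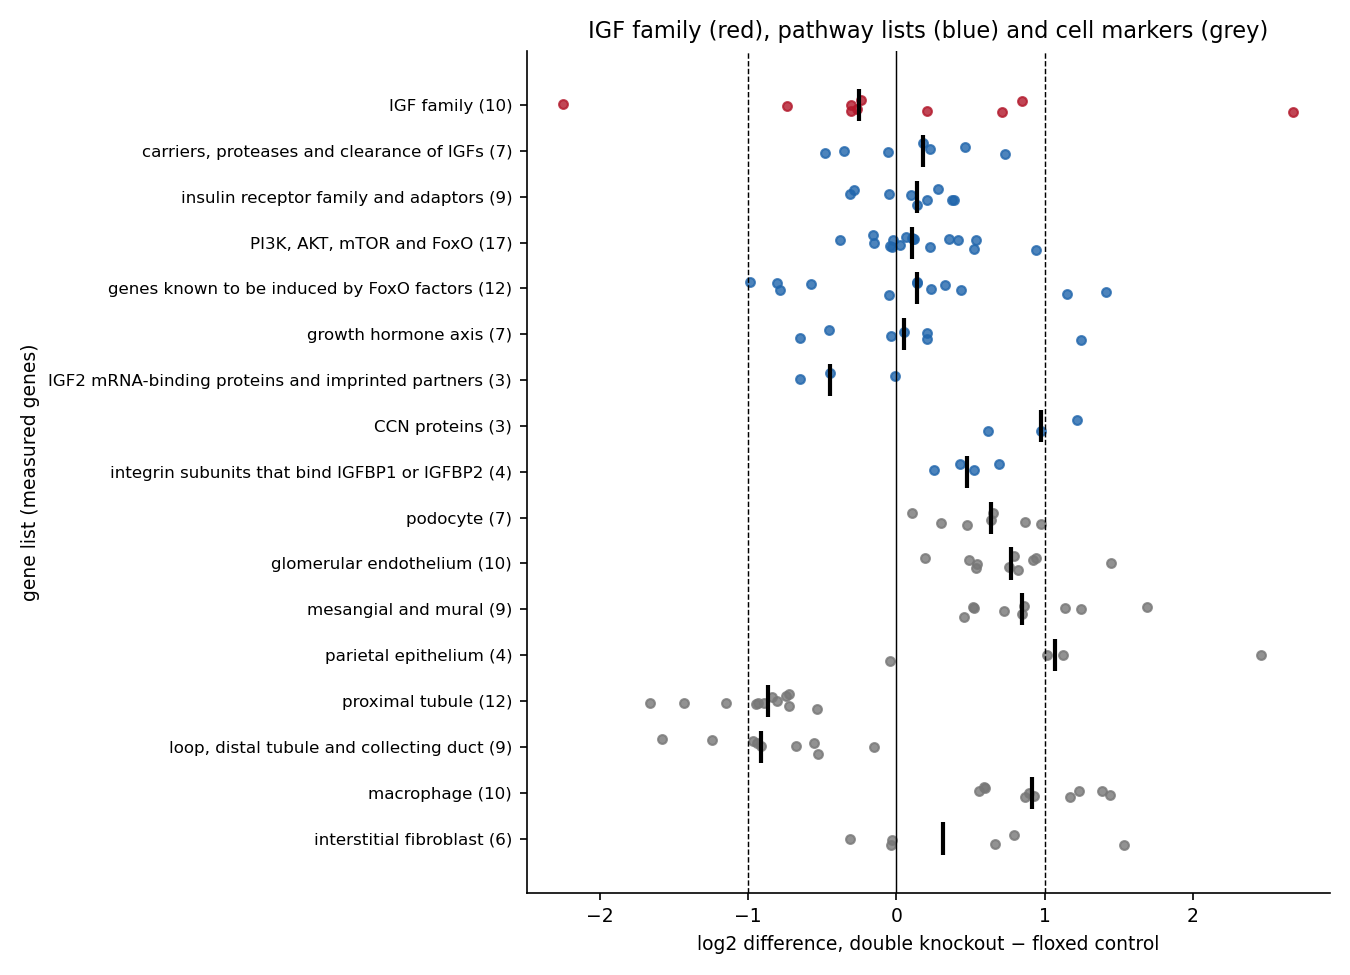
Log2 difference between the double knockout and the floxed control (x axis) of every measured gene, by list (y axis, with the number of measured genes), as points with the list's median as a black bar; the lymphocyte list, with 2 measured genes, is left out. The IGF family in red spans from -2.25 (Igfbp1) to 2.68 (Igfbp2) around a median of -0.25. The opposite directions of these 2 genes were known when the family was chosen, so its span is not compared with the pathway lists in blue. Tubule markers lie below 0 while all but 1 of the glomerular markers lie above it.

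For Igfbp1 and Igfbp2, the genes with the most similar pair of signals were looked up as the nearest by Euclidean distance of the log2 signals over the arrays, which with 2 arrays says only that the same 2 values were read. Nearest to Igfbp2 was Havcr1, the kidney injury molecule 1 gene, at 2272 in the double knockout against 357 in the floxed control (distance 0.05). Cd44 at 1855 in the double knockout against 337 in the floxed control (0.26) and Gadd45b at 1992 in the double knockout against 422 in the floxed control (0.32) followed. Nearest to Igfbp1 were Insig1 at 603 in the double knockout against 2261 in the floxed control (0.26), Apom at 716 in the double knockout against 2672 in the floxed control (0.36) and Cyp2d12 at 412 in the double knockout against 2848 in the floxed control (0.45).

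The targeted genes read as follows. Npr1 was at 102 in the double knockout against 167 in the floxed control (-0.71), and the brightest probe set of Mapk14, which encodes p38α, although the labels do not name the p38 gene that is floxed, was at 2607 in the double knockout against 2628 in the floxed control (-0.01). Where these probes lie relative to the floxed exons is not given in the sources used here, so they do not check the deletion.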

How the data were processed

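Glomeruli were isolated by sieving, and biotin-labelled cRNA was made with a 3′ IVT kit, per the labels' protocols. The deposited intensities are linear signals of Affymetrix probe sets, made by the authors with MAS5 per the submitters' processing notes; its version is not given in the sources used here. On both arrays the deposited intensities had a mean of 500.0 without the lowest and highest 2%, so a difference is relative to the rest of each sample. The number of arrays, 1 per group, limits the precision, and no test was possible.

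Control probe sets (64) were dropped. Of 45037 others, 34945 had 1 gene symbol in GEO's platform annotation, 932 several and 9160 none listed; symbols were updated by gene identifier to the RefSeq table of GRCm38.p6. Signals below the floor of 52.7 were raised to it before log2. Members, lists and the rule for named genes were chosen with earlier results of these data known. The rule named all members, list genes past 2-fold or else the largest, the ends of marker lists and the 3 genes nearest to Igfbp1 and Igfbp2; chromosomal neighbours and the targeted genes were named besides, and other names are marked. Listed genes without a probe set of 1 symbol are not analysed here. Python 3.11.15 with pandas 2.3.3 and statsmodels 0.14.6 was used, and the steps were tested on simulated data. Alternatives were other floors, scalings, probe set choices and size rules.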

Additional observations from a re-analysis of the deposited data

How the results depend on the processing

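No paired analysis was possible because each group had 1 array, and for the same reason no replicate could be left out. Igfbp2 stayed at least 2-fold higher (1.90 to 2.68 on the log2 scale) and Igfbp1 at least 2-fold lower (-3.02 to -2.19) under all 12 alternatives, and no difference past 2-fold changed sign. A value was taken as moved where it shifted by more than the robust SD among genes of like signal. This held for 27 of 230 probe set values, 26 of them on recentring on glomerular markers. That setting gave 7 members past 2-fold in place of 2, and 13 pathway genes in place of 4. The median over the family's probe sets became -1.04 in place of -0.26. This is because the setting subtracts 0.78 from each difference. Of all 13290 measured genes, it put 46 past 2-fold upward and 3484 downward. With a 1.5-fold rule 5 members and 14 pathway genes were past it, against 13.7% of all measured genes upward and 10.0% downward. With a 3-fold rule the counts were 2 members and 0 pathway genes. The share of all genes past 3-fold was not counted, so nothing is read from those counts. Of 5 pathway genes past 2-fold with a lower floor, no floor or other scalings between the arrays, 1 was lower. With the floor at the 60th percentile 2 pathway genes were past 2-fold, since dim genes were raised to it. Of all genes past 2-fold 55.1% were higher as deposited, 47.4% with that floor, 38.6% after median or 75th percentile centring, 44.9% after quantile normalization, 46.1% without the loess trend, 45.0% when the middle probe set stood for a gene and 1.30% on recentring. Signals near the floor limit Igf2, Igfbp6 and the dimmer Igf1 sets.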
